A study of Homo sapiens with 6 samples.

Results

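Glycolysis, the glucose and lactate transporters at the cell membrane and the enzymes that decide the fate of pyruvate were followed through 36 genes in human pluripotent cells and in the neuromesodermal progenitor-like (NMP-L) cells derived from them. The genes were chosen by symbol, by their place in the pathway, and all 36 were found among the 27672 genes of the deposited table. The choice was made to ask whether a lower transcript level of GAPDH in NMP-L (D3) cells, a gene commonly used as an invariant reference, was shared by the rest of its pathway.

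Both conditions came from H9, an established human embryonic stem cell (hESC) line, so all 6 libraries have the genetic background of 1 line. Per the labels, hESCs (day 0) were kept without feeder cells on fibronectin in DEF medium, to which bFGF (30 ng/ml) and Noggin (10 ng/ml) were added. NMP-L cells were collected after 3 days in N2/B27 medium, which held bFGF (20 ng/ml) and, at 3 µM, CHIR99021, a GSK3 inhibitor used to activate Wnt signalling. The methods of the study describe another hESC medium and matrix, TESR on Geltrex, than the labels do. They also describe Noggin and SB431542 added before day 3, and so before NMP-L cells were collected. The labels of the NMP-L libraries leave this addition out. Whether the sequenced NMP-L cells received it is not given. Each condition had 3 libraries, which the labels call biological replicates without saying how the cultures were separated. The basal medium changed together with the cell state, so their contributions to any difference cannot be told apart. Because RNA was taken from bulk cultures, fewer cells of a type and less RNA per cell cannot be told apart either.

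Glycolysis converts glucose to pyruvate in the cytosol, with a small yield of ATP and NADH. Lactate dehydrogenase reduces pyruvate to lactate, which monocarboxylate transporters carry across the membrane, whereas the mitochondrial pyruvate carrier and the pyruvate dehydrogenase complex feed pyruvate into the TCA cycle as acetyl-CoA. Human pluripotent stem cells in culture are known for a high rate of aerobic glycolysis, and several glycolytic genes are classical targets of hypoxia-inducible factors and of MYC, whose binding sites share the core letters ACGTG.

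The libraries held between 19454543 and 23036426 expected counts, so that 3 counts, used as the detection floor, correspond to 0.130 to 0.154 CPM (counts scaled by the library total). Pluripotency markers were lower in NMP-L cells for 5 of 5 genes (summed 4092 to 4377 TPM in hESCs, 2358 to 2506 in NMP-L cells) but remained far above the floor. Of the neuromesodermal markers, 5 of 6 tested were higher, and their summed level was between 10.9 and 14.2 TPM in hESCs and between 69.4 and 104 TPM in NMP-L cells. TBX6 was the exception and was lower. Neural progenitor markers summed to between 1.66 and 2.51 TPM in hESCs and between 6.13 and 7.95 TPM in NMP-L cells, a difference carried by SOX1 alone (0.203 ± 0.111 and 5.94 ± 0.934 TPM, SD, n = 3), since the other 3 genes of the list were not higher or were at the floor. Endodermal markers summed to at most 2.26 TPM, with SOX17 and TTR at or under the floor, and neuronal markers to at most 11.6 TPM. The fibroblast and mesenchyme list summed to between 311 and 357 TPM in hESCs and between 28.8 and 30.2 in NMP-L cells, nearly all of it COL1A1, while DCN and LUM were at or under the floor. The part of these lists in the differences below was not tested.

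GAPDH (chr12:6643678-6647540, GRCh37) encodes glyceraldehyde-3-phosphate dehydrogenase, the enzyme of the oxidative step of glycolysis. Its level in TPM, a scale that accounts for transcript length and library total, was 7099, 7194 and 7746 in hESCs, and in NMP-L cells it was 5690.1, 5396 and 4958. All 3 NMP-L libraries lay under all 3 hESC libraries. The mean fell from 7346 ± 349.6 (SD, n = 3) to 5348 ± 368 TPM, a 1.47-fold lower level in the fit of counts with TMM scaling (log2 fold change -0.55, SE 0.08, 95% interval -0.73 to -0.37, adjusted p = 1.4e-04, edgeR's quasi-likelihood test with Benjamini-Hochberg adjustment over all tested genes). All adjusted p-values below come from that edgeR test, and called means an adjusted p under 0.05.

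The fall was shared by most of the pathway. Of the 36 genes, 35 had enough counts to be tested. In NMP-L cells 22 of them, GAPDH included, were lower, 6 were higher and 7 did not pass the threshold. Across all 15517 genes tested, 55.8% were called, 26.7% lower and 29.1% higher. The median log2 fold change of the 35 genes was -0.55, beside 0.03 over all tested genes. GAPDH was the middle gene, so this median is its own value. For the 22 lower and the 6 higher genes the libraries of the conditions did not overlap on the scaled CPM, which held for 29.5% of all tested genes downwards and 32.1% upwards. The 36 genes together took 2.26%, 2.2% and 2.4% of all counts in hESCs, but 1.57%, 1.5% and 1.43% in NMP-L cells. Within the NMP-L libraries GAPDH held a larger part of their summed TPM (33.3%, 33.0% and 31.2%) than within the hESC libraries (28.6%, 30.7% and 29.7%), without overlap, so the other genes together were reduced by more than GAPDH itself.

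**Figure D1:**
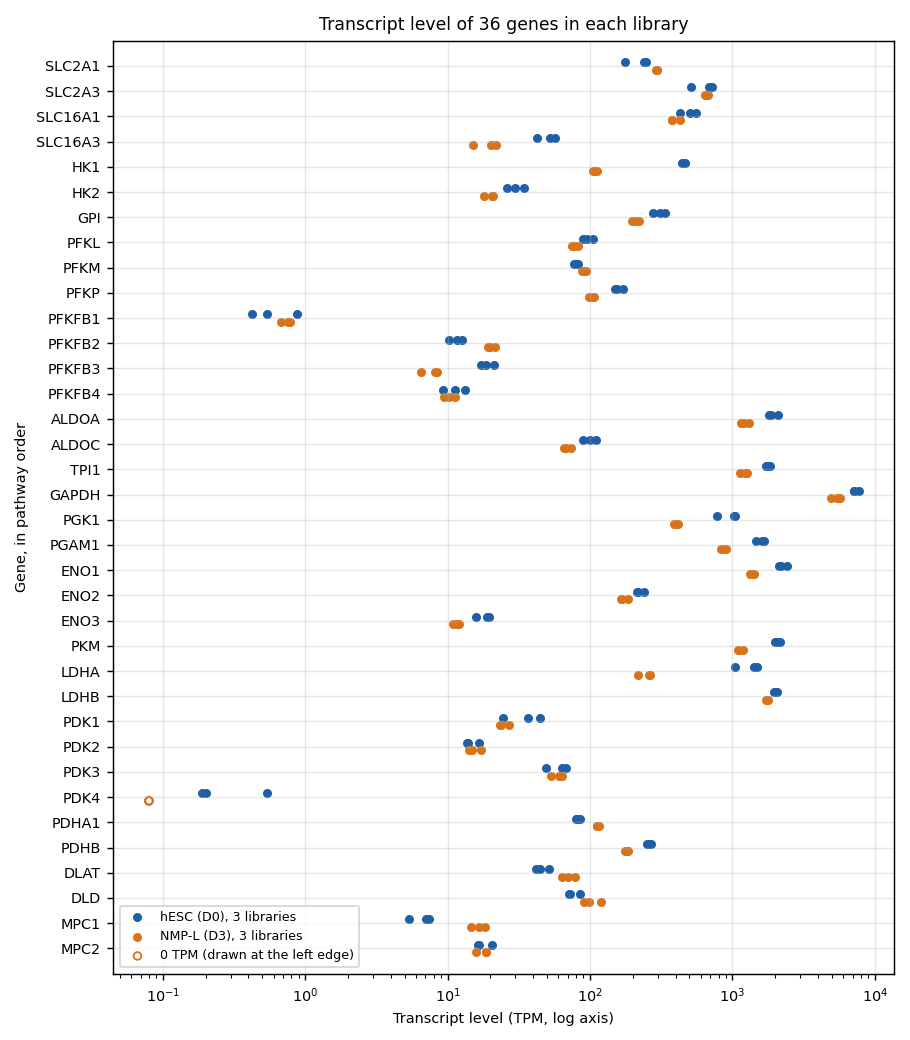
Transcript level of each of the 36 genes in TPM (log axis), in pathway order from the membrane transporters to the mitochondrial pyruvate carrier, with 1 point per library (blue hESC, orange NMP-L, 3 each). Most orange points of the enzymes from HK1 to LDHB lie left of the blue ones, whereas those of PFKFB2, PDHA1, DLAT, DLD and MPC1 lie to the right, and PDK4 is at 0 TPM in the NMP-L libraries (open circles at the left edge).

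GAPDH stood in the middle of the 35 tested genes, though not of the enzymes of glycolysis described below. Its log2 fold change ranked 18th from the lowest of the 35, with 17 genes below it and 17 above. At or below its fold change lay 18.1% of all tested genes. To compare the genes with GAPDH directly, counts were scaled to the GAPDH counts of each library. Relative to GAPDH, 9 of the other 34 genes were lower (SLC16A3, HK1, PFKFB3, ALDOA, PGK1, PGAM1, ENO1, PKM and LDHA), 12 were higher and 13 were not called. Over all tested genes this scaling called 9.2% lower and 64.6% higher, since it moved the median log2 fold change of all genes by 0.56. Direction therefore depended on the reference. With HPRT1, a purine salvage gene, as the reference, which moved that median by -0.30, 2 of the 35 genes were higher and 23 lower (11.6% and 34.1% of all genes), and GAPDH was lower by a log2 fold change of -0.85.

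The 10 enzymatic steps from glucose to pyruvate showed the fall most uniformly. Of their 16 genes, 15 were lower, GAPDH included, 0 were higher and PFKM was not called, with a median log2 fold change of -0.71. Within these steps GAPDH (-0.55) fell less than most. Only ENO2 (-0.47), PFKL (-0.40) and PFKM (0.07) had a higher log2 fold change. Relative to GAPDH counts, 6 of the other 15 were lower, PFKM was higher and 8 were not called. Their summed level was 19008, 18533 and 20522 TPM in hESCs and 13099, 12418 and 11718 TPM in NMP-L cells, a mean of 19354 ± 1039 against 12411 ± 690.4 (SD, n = 3).

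Hexokinases trap glucose in the cell by phosphorylation, and HK1 (chr10:71029740-71161640) showed the largest fall of the 10 steps. Its level was 446, 450.2 and 468 TPM in hESCs and 109, 112 and 105 TPM in NMP-L cells. The replicates differed by little and the conditions were far apart, with a 4.46-fold lower level in NMP-L cells (log2 fold change -2.16, SE 0.08, edgeR adjusted p = 2.9e-09). HK2, the inducible hexokinase, was expressed at a lower level, between 26.3 and 34.3 TPM, and fell to at most 20.8 TPM (log2 fold change -0.70, edgeR adjusted p = 1.2e-04). HK1 therefore made up 93.8% ± 0.843 (SD, n = 3) of the summed hexokinase TPM in hESCs and 84.6% ± 1.36 in NMP-L cells. Shares of this kind do not depend on the scaling between libraries. They were compared for 19 genes with a two-sided exact permutation test, whose smallest possible p with 3 libraries against 3 is 0.1 (0.136 after Benjamini-Hochberg adjustment over the 19), and this smallest value was reached by every share whose libraries did not overlap between conditions, HK1 included.

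GPI, which interconverts glucose 6-phosphate and fructose 6-phosphate, lay between 279 and 339 TPM in hESCs and between 196 and 222 in NMP-L cells (log2 fold change -0.67, edgeR adjusted p = 6.8e-05). The next enzyme, phosphofructokinase, commits the sugar to glycolysis and is assembled from 3 paralogous subunits, which moved apart. The platelet-type subunit PFKP fell from 149.9, 154 and 170.1 TPM to 106, 105 and 98.3 TPM (log2 fold change -0.72, edgeR adjusted p = 3.1e-05). The muscle-type subunit PFKM was between 77.5 and 82.9 TPM in hESCs and between 87.4 and 93.3 TPM in NMP-L cells, without overlap in TPM but with overlap on the scaled CPM. Its log2 fold change in the fit of counts was 0.07, whose 95% interval ran from -0.11 to 0.24 (edgeR adjusted p = 0.49). The share of PFKM in the step was 24.0% ± 0.684 in hESCs and 33.1% ± 0.125 in NMP-L cells, and that of PFKP 47.2% ± 0.4 and 38.0% ± 0.872 (SD, n = 3), with no overlap between the conditions for either. The liver-type subunit PFKL held 28.8% and 28.9% and its libraries overlapped. Its own fall, with a log2 fold change of -0.40 (edgeR adjusted p = 0.0027), was not called once counts were corrected for GC content and length (-0.09, adjusted p = 0.15).

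Fructose 2,6-bisphosphate, the strongest activator of phosphofructokinase, is made and removed by the bifunctional PFKFB enzymes, and here 2 paralogues moved in opposite directions. PFKFB3, the form with the highest ratio of kinase to phosphatase activity, was at 21.2, 17.3 and 18.5 TPM in hESCs and 8.45, 6.54 and 8.12 TPM in NMP-L cells. PFKFB2, known as the heart form, was at 12.6, 10.3 and 11.7 TPM in hESCs and 19.8, 19.2 and 21.4 TPM in NMP-L cells. Neither gene's libraries overlapped between conditions, with a 2.67-fold fall for PFKFB3 (log2 fold change -1.42, SE 0.12, edgeR adjusted p = 1.7e-06) and a 1.82-fold rise for PFKFB2 (0.87, SE 0.09, edgeR adjusted p = 1.3e-05). The summed PFKFB level was 42.4 ± 5.21 TPM in hESCs and 38.9 ± 2.53 TPM in NMP-L cells, but the most abundant form differed: PFKFB3 held 44.9% ± 1.07 of the sum in hESCs and 19.8% ± 1.44 in NMP-L cells, and PFKFB2 27.3% ± 0.793 and 51.9% ± 2.27. PFKFB4 was between 9.33 and 13.2 TPM in all 6 libraries and was not called (log2 fold change -0.21, 95% interval -0.49 to 0.07), except relative to HPRT1 counts (-0.49, adjusted p = 0.044). PFKFB1, the liver form, had 6 to 13 counts per library, and its interval of -0.55 to 1.1 leaves its direction undetermined at this depth.

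**Figure D2:**
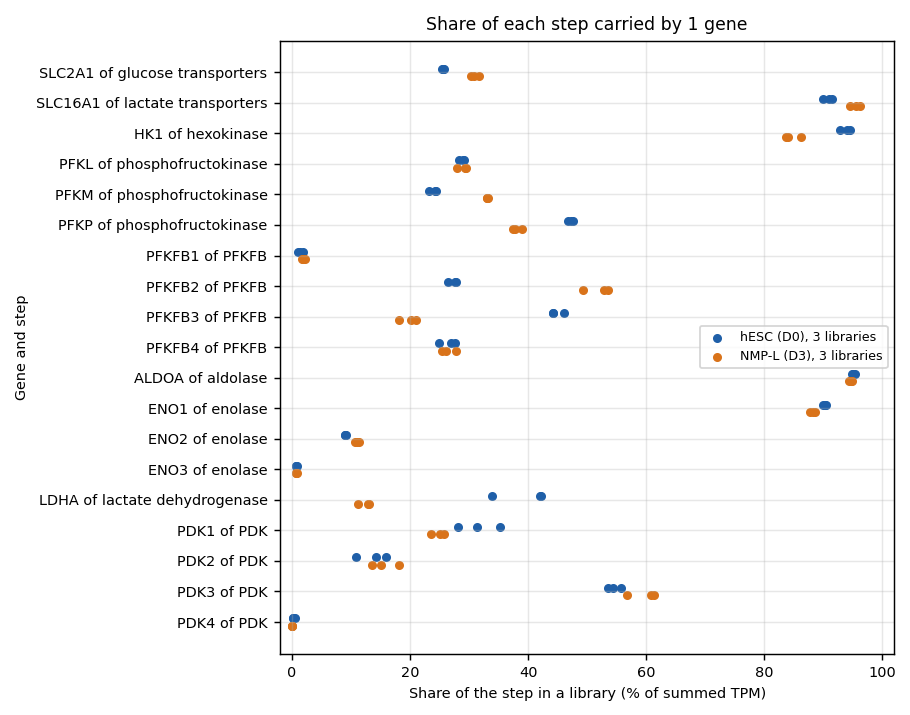
Share of the summed TPM of a step carried by 1 gene in each library, in percent, for the 19 shares compared (blue hESC, orange NMP-L, 3 libraries each). The libraries separate most for LDHA (39.3% and 12.4% on average), PFKFB3 (44.9% and 19.8%) and PFKFB2 (27.3% and 51.9%), while the shares of PFKL, PFKFB1, PFKFB4, ENO3 and PDK2 overlap.

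Aldolase splits fructose 1,6-bisphosphate, and its main gene ALDOA fell from between 1821 and 2105 TPM to between 1145 and 1316 TPM (log2 fold change -0.75, edgeR adjusted p = 2.4e-05). The brain-type aldolase ALDOC fell from between 90.1 and 111 TPM to between 65.9 and 73.8 TPM (-0.63, edgeR adjusted p = 2.1e-04). Triose phosphate isomerase, TPI1, was at 1719.8 to 1826 TPM in hESCs and 1125 to 1266 TPM in NMP-L cells (-0.64, edgeR adjusted p = 3.9e-05). Fractional expected counts were present for TPI1 in 3 libraries. The conditions did not overlap for any of these 3 genes. Set against GAPDH counts, ALDOA was called lower (-0.20, adjusted p = 0.029), whereas ALDOC, TPI1 and GPI were not called.

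Phosphoglycerate kinase, encoded by PGK1 (chrX:77166236-77384792), makes the first ATP of the pathway and fell further than its neighbours. It was at 1033, 776 and 1049 TPM in hESCs and 418, 389 and 408 TPM in NMP-L cells. The hESC replicate 2 was the lowest of its group but still well above all NMP-L libraries, and the level was 2.51-fold lower in NMP-L cells (log2 fold change -1.33, SE 0.10, edgeR adjusted p = 7.3e-07). PGAM1, the mutase of the next step, fell 1.96-fold, from between 1475 and 1670.5 TPM to between 837 and 901 TPM (edgeR adjusted p = 8.1e-07). It carried fractional expected counts in all 6 libraries, so part of its reads was divided by estimation.

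Enolase produces phosphoenolpyruvate. ENO1, the ubiquitous form, was at 2193, 2118 and 2412 TPM in hESCs and 1418, 1385 and 1326 TPM in NMP-L cells, and fell by 0.80 on the log2 scale (edgeR adjusted p = 4.4e-06). The neuronal form ENO2 fell from between 215 and 239.6 TPM to between 166 and 185 TPM, and the muscle form ENO3 from 18.1 ± 1.94 TPM to 11.5 ± 0.568 TPM (SD, n = 3) (log2 fold changes -0.47 and -0.75, edgeR adjusted p = 6.1e-04 and 4.6e-04). The share of ENO2 in the enolase sum was 9.02% ± 0.0881 in hESCs and 11.1% ± 0.356 in NMP-L cells, without overlap. ENO1 carried fractional expected counts in all 6 libraries and ENO2 in 1, so part of their reads was divided by estimation. Pyruvate kinase, PKM (chr15:72491370-72524160), closes the pathway with its last ATP. It fell from 2060.3, 1995 and 2149.8 TPM to 1186, 1109 and 1088 TPM, 1.96-fold, with tight replicates in both conditions (log2 fold change -0.97, SE 0.07, edgeR adjusted p = 5.7e-07). Values were per gene, so the 2 splice forms of PKM could not be separated.

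**Figure D3:**
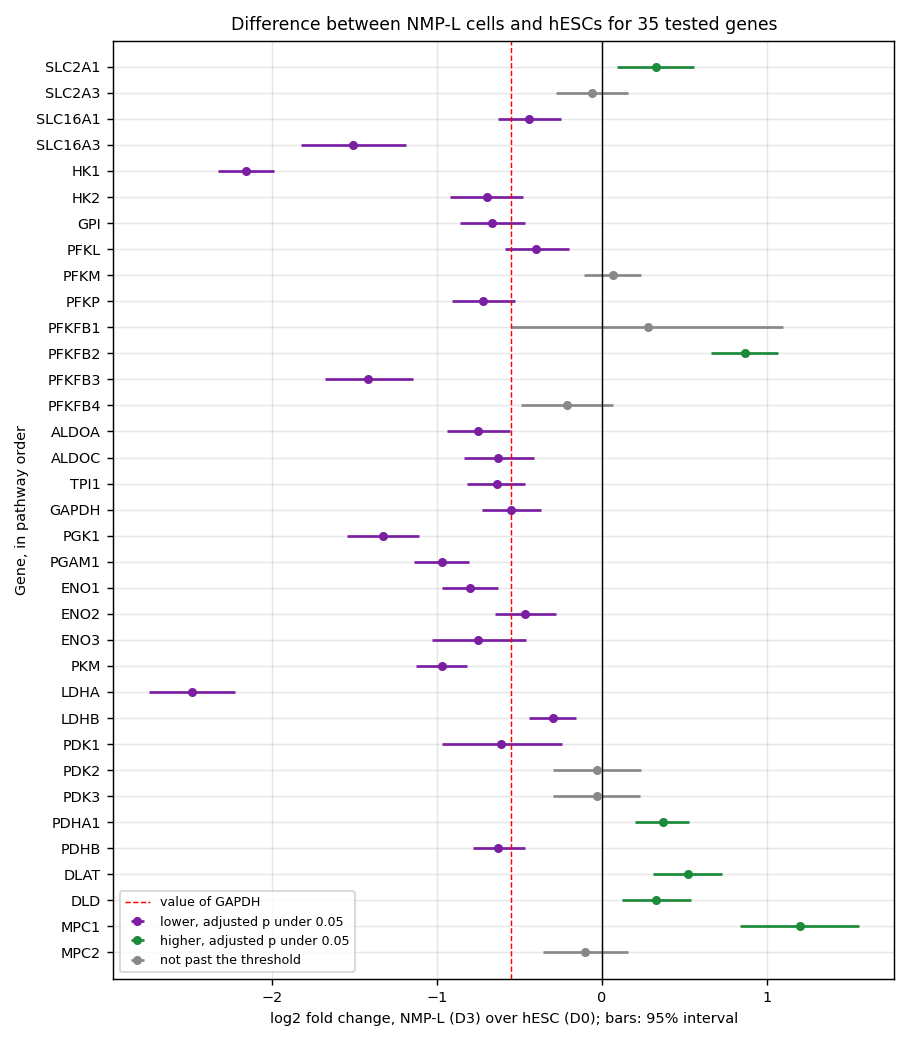
Log2 fold change of NMP-L (D3) over hESC (D0) for the 35 tested genes in pathway order, with 95% intervals (bars), 3 libraries per condition and TMM scaling; purple and green mark genes called lower and higher, grey those not called, and the dashed line the value of GAPDH (-0.55). LDHA (-2.49) and HK1 (-2.16) lie furthest to the left and MPC1 (1.20) furthest to the right.

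The largest fall of all 35 genes was at the branch from pyruvate to lactate. LDHA (chr11:18416107-18429972) encodes the lactate dehydrogenase subunit that favours lactate formation, and LDHB the subunit that favours the reverse reaction. LDHA was at 1481, 1051 and 1427 TPM in hESCs and 261, 218 and 266 TPM in NMP-L cells. Replicate 2 was the lowest of the hESC libraries, yet it was several times above every NMP-L library, and the level in NMP-L cells was 5.62-fold lower (log2 fold change -2.49, SE 0.12, edgeR adjusted p = 1.9e-08). LDHB, with 2032, 2055 and 1972 TPM in hESCs and 1750.0, 1732 and 1794 TPM in NMP-L cells, was only 1.23-fold lower (log2 fold change -0.30, SE 0.06, edgeR adjusted p = 0.0022), and was higher relative to GAPDH counts (0.26, adjusted p = 0.026). LDHA accordingly held 42.2%, 33.8% and 42.0% of the summed lactate dehydrogenase TPM in hESCs and 13%, 11.2% and 12.9% in NMP-L cells, a difference of -27.0 percentage points between the means. The sum itself was 3339 ± 210.0 TPM in hESCs and 2007 ± 54.8 TPM in NMP-L cells (SD, n = 3).

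The bases upstream of LDHA and PGK1, which both fell by more than 2-fold, and of MPC1, the gene with the largest rise, are printed as examples chosen after their values were seen. Each run is the 250 bases before a transcription start listed by RefSeq (table build GRCh38.p14), found by exact match at a single place of its chromosome in GRCh37 and written 5′ to 3′ on the strand of the gene. The stretches are chr11:18415860-18416109 on the plus strand for LDHA, chrX:77359495-77359744 on the plus strand for PGK1 (inside its annotated span, which begins at a start further upstream) and chr6:166796429-166796678 on the minus strand for MPC1. Capitals mark ACGTG and GCGTG, the letter cores of the hypoxia response element, and CACGTG, the E-box, on either strand (CACGT and CACGC are the first 2 read from the other strand).
LDHA: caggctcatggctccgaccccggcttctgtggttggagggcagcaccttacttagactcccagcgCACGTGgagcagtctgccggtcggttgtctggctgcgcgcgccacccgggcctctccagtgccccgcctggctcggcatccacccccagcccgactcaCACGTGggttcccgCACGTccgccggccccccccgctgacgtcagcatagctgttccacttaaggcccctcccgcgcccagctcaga
PGK1: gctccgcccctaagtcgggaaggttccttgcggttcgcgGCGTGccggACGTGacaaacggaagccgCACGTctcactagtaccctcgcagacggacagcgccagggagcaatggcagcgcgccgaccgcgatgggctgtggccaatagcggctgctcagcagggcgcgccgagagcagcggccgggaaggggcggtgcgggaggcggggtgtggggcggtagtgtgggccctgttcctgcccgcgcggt
MPC1: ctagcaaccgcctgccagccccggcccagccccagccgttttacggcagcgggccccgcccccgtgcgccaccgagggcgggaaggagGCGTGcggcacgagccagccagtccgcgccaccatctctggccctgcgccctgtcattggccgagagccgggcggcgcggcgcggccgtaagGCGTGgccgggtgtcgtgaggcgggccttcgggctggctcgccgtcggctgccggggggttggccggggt
The LDHA window printed holds 2 copies of CACGTG, each of which contains ACGTG on both strands, and 1 further ACGTG on the opposite strand. A second LDHA window, at a downstream start (chr11:18417648-18417897) and not printed, holds no ACGTG or CACGTG and 1 GCGTG. That of PGK1 holds ACGTG 2 times and GCGTG 1 time, and that of MPC1 holds GCGTG 2 times and no ACGTG. Windows were matched for 33 of the 36 genes, 66 windows in all, since some genes have several starts. ACGTG on either strand was present in 21 of them (31.8%), beside 21.8% of the windows of all tested genes and 18.5% of all windows. It was present in 17 of the 42 windows of genes called lower (40.5%) and in 4 of the 24 windows of the other genes (16.7%). GCGTG, in contrast, was in 33.3% of the 66 windows and in 42.5% of those of tested genes, and CACGTG in 12.1% and 8.02%. ACGTG or GCGTG was in 51.5% of the 66 windows and in 53.9% of those of tested genes. Between windows of genes called lower and of the other genes, GCGTG was in 35.7% and 29.2%. ACGTG or GCGTG was in 61.9% and 33.3%, and CACGTG in 16.7% and 4.17%. No share was taken over all genes called lower. Windows of the same gene can overlap and are not independent, so these shares are given as a description only, and a match in letters is not a bound site.

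The membrane transporters did not move as a group. SLC2A1 (GLUT1) and SLC2A3 (GLUT3, the high-affinity neuronal-type carrier) are facilitative glucose transporters. SLC2A1 was at 249, 175 and 238 TPM in hESCs and 298, 293 and 295 TPM in NMP-L cells. All NMP-L libraries were higher, and the log2 fold change was 0.33 (SE 0.11, edgeR adjusted p = 0.022). That call rested on few libraries. It was lost without NMP-L replicate 1 (0.31, adjusted p = 0.053) or NMP-L replicate 2 (0.32, adjusted p = 0.063) and relative to HPRT1 counts (0.03), and the value was 0.19 (adjusted p = 0.035) without hESC replicate 2. SLC2A3, at 725, 513 and 691 TPM in hESCs and 643, 655 and 677 TPM in NMP-L cells, overlapped between conditions and was not called (log2 fold change -0.06, 95% interval -0.28 to 0.16), but without hESC replicate 2 it was called lower (-0.19, adjusted p = 0.023). The share of SLC2A1 in the sum of both was 25.6% ± 0.108 in hESCs and 31.0% ± 0.676 in NMP-L cells, without overlap. SLC2A3 shares sequence with its close paralogue SLC2A14, and both carried fractional expected counts in all 6 libraries, so part of their reads was divided by estimation.

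Of the monocarboxylate transporters, SLC16A1 (MCT1) carries lactate and pyruvate in both directions and SLC16A3 (MCT4) is known for lactate export from glycolytic cells. SLC16A3 fell from 52.2, 42.8 and 57.3 TPM to 21.9, 15.0 and 20.2 TPM, a 2.84-fold lower level (log2 fold change -1.51, SE 0.15, edgeR adjusted p = 5.0e-06), with no overlap between libraries. SLC16A1 was the more abundant of the pair, with 559, 429.6 and 508 TPM in hESCs and 375, 379 and 428 TPM in NMP-L cells, and its fall was smaller (-0.44, SE 0.09, edgeR adjusted p = 0.0011). SLC16A1 held 90.8% ± 0.813 of the sum of the pair in hESCs and 95.4% ± 0.862 in NMP-L cells.

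On the mitochondrial side of pyruvate the direction differed between genes. Of the pyruvate carrier, 1 of 2 genes was higher, and of the pyruvate dehydrogenase complex 3 of 4 were higher and 1 lower. Of the 3 pyruvate dehydrogenase kinases tested, 1 was lower and 0 were higher. Over all tested genes 29.1% were higher and 26.7% lower. The mitochondrial pyruvate carrier is a heteromer of MPC1 and MPC2. MPC1 (chr6:166778407-166796501) was at 7.36, 7.03 and 5.39 TPM in hESCs and 14.7, 16.6 and 18.2 TPM in NMP-L cells. All NMP-L libraries were above all hESC libraries, and the gene rose 2.30-fold (log2 fold change 1.20, SE 0.16, edgeR adjusted p = 7.7e-05), the only 1 of the 35 to rise by at least 2-fold (9.38% of all tested genes did), whereas 5 fell by at least 2-fold (9.18%). Its rise was also called relative to HPRT1 counts (0.91, adjusted p = 0.0015). Its partner MPC2 was at 20.4, 16.3 and 16.6 TPM in hESCs and 15.9, 18.7 and 18.6 TPM in NMP-L cells and was not called (-0.10, 95% interval -0.36 to 0.16).

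The pyruvate dehydrogenase complex converts pyruvate to acetyl-CoA. Of its genes, 3 were higher and 1 was lower. PDHA1, the catalytic E1 alpha subunit, was at 80.8, 85.8 and 79.6 TPM in hESCs and 112, 112 and 115 TPM in NMP-L cells (log2 fold change 0.37, SE 0.08, edgeR adjusted p = 0.0017). PDHB, its E1 beta partner, was at 269, 252 and 259.8 TPM in hESCs and 181, 175 and 185 TPM in NMP-L cells (log2 fold change -0.63, SE 0.07, edgeR adjusted p = 1.9e-05). The 2 subunits of the same enzyme thus changed in opposite directions, each without overlap between the conditions. DLAT, the E2 core, rose from between 41.9 and 52.0 TPM to between 63.6 and 79.1 TPM (0.52, edgeR adjusted p = 6.2e-04). DLD, the E3 subunit also used by other dehydrogenases, rose from between 71.6 and 84.7 TPM to between 91.3 and 119 TPM (0.33, edgeR adjusted p = 0.011), but its call was lost without hESC replicate 3 (0.28, adjusted p = 0.078) and with the GC and length correction (0.13, adjusted p = 0.051). The rises of PDHA1 (0.07), DLAT (0.22) and DLD (0.03) were not called relative to HPRT1 counts. The summed TPM of the 4 genes was 465 ± 19 in hESCs and 467 ± 27.1 in NMP-L cells (SD, n = 3).

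Pyruvate dehydrogenase kinases phosphorylate E1 alpha and switch the complex off. PDK1, a hypoxia-induced form, was at 44.7, 24.7 and 36.6 TPM in hESCs and 23.7, 23.3 and 26.9 TPM in NMP-L cells. The hESC replicate 2 fell within the range of the NMP-L libraries on this scale, though not on the scaled CPM, and the log2 fold change was -0.61 (SE 0.17, edgeR adjusted p = 0.0093). PDK3, the most abundant kinase, lay between 48.8 and 68.1 TPM in hESCs and between 53.6 and 63.7 TPM in NMP-L cells, and PDK2 between 13.8 and 16.6 and between 14.2 and 17.1 TPM. Neither was called (both log2 fold changes -0.03, with 95% intervals of -0.30 to 0.23 for PDK3 and -0.30 to 0.24 for PDK2). PDK4, the form induced by fasting, had 18, 7 and 7 counts in hESCs and 0, 0 and 0 in NMP-L cells. It had too few counts to be tested. Its mean hESC level was 3.96-fold above the NMP-L floor of 3 counts per library, or 2.58-fold without hESC replicate 1. These values make no allowance for error in the small hESC counts.

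The hESC libraries were not equally spread for these genes. Replicate 2 was the lowest hESC library for 17 of the 35 genes, whereas this held for 36.7% of all tested genes. Its level against the mean of replicates 1 and 3 was -0.72 on the log2 scale for PDK1, -0.43 for SLC2A1, -0.42 for LDHA and SLC2A3, -0.40 for PDK3 and -0.38 for PGK1, and 0.00 for GAPDH. The median coefficient of variation of the 35 genes was 8.52% in hESCs and 7.36% in NMP-L cells, beside 10.0% and 9.32% over all tested genes. Leaving out any 1 library kept the numbers of genes lower at 22 or 23 and of genes higher at 5 or 6. Of the 36 genes, 14 have exons that overlap those of another gene in the table, 12 of them on the opposite strand, and whether counting used strand is not given in the sources used here. Among the 6 higher genes this concerns PFKFB2 (YOD1), PDHA1 (MAP3K15), DLAT (PIH1D2) and DLD (LAMB1), and among the genes with large falls PGK1 (ATP7A, same strand) and SLC16A3 (CSNK1D). HK1, LDHA, MPC1 and GAPDH have no such overlap.

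The rarer isoforms and partners of the same enzymes were examined as a further list. Of 35 such genes, 24 were tested, 9 were lower and 3 higher (26.7% and 29.1% of all tested genes), with a median log2 fold change of -0.18. LDHD, a mitochondrial D-lactate dehydrogenase, fell from 12.1, 15.2 and 14.7 TPM to 0.88, 0.95 and 0.71 TPM (log2 fold change -4.11, SE 0.19, edgeR adjusted p = 1.6e-08). The glucose transporter genes SLC2A14 (-0.64) and SLC2A10 (-0.56) were also lower, and PDHX, which anchors E3 in the pyruvate dehydrogenase complex, was higher (0.38, edgeR adjusted p = 0.0089). Relative to GAPDH counts 12 of the 24 were higher and 4 lower, beside 64.6% and 9.2% of all tested genes under that scaling.

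Genes of the TCA cycle and related enzymes were more often higher than lower, unlike those of the 10 steps. Of 23 genes, 22 were tested, 13 were higher and 2 lower, with a median log2 fold change of 0.23 (29.1% and 26.7% of all tested genes). Relative to HPRT1 counts 5 of the 22 were higher, where 11.6% of all tested genes were. The higher calls of IDH1, FH, MDH1 and MDH2 were lost with replicate number as a block and without some single libraries. The largest rises were those of PC, pyruvate carboxylase, which makes oxaloacetate from pyruvate (5.06, 5.51 and 5.94 TPM in hESCs, between 12.4 and 15.5 TPM in NMP-L cells, log2 fold change 1.24, edgeR adjusted p = 7.9e-06), and of PCK2, the mitochondrial phosphoenolpyruvate carboxykinase (0.96, edgeR adjusted p = 6.9e-05). IDH3G, a subunit of isocitrate dehydrogenase, and SUCLA2, a subunit of succinyl-CoA synthetase, were lower (-0.42 and -0.38).

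GAPDH was set beside 13 genes in common use as references for transcript levels, which the list of 36 does not include and of which SDHA is also a TCA cycle gene. Of these 2 were higher and 4 lower (29.1% and 26.7% of all tested genes), with a median of -0.01. RPL13A (-0.42) was lower by nearly as much as GAPDH, PPIA (-0.25) and ACTB (-0.22, edgeR adjusted p = 0.018) by less, and YWHAZ was higher (0.43). HPRT1, with 86.2, 69.2 and 61.1 TPM in hESCs and 83.6, 91.6 and 107 TPM in NMP-L cells, overlapped between conditions and was not called (0.28, 95% interval 0.01 to 0.55, edgeR adjusted p = 0.069). When counts were scaled to the 13 genes together, 22 of the 35 pathway genes were lower and 6 higher, and the log2 fold change of GAPDH was -0.53.

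**Figure D4:**
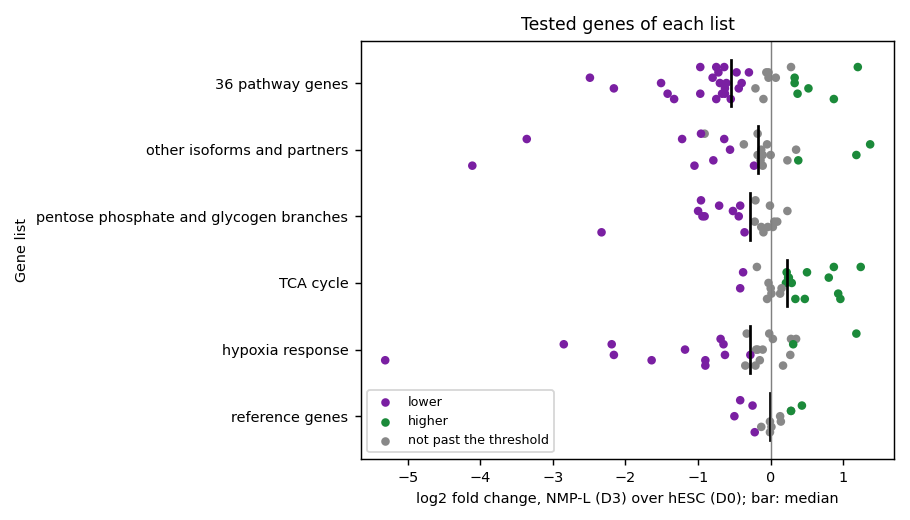
Log2 fold change of NMP-L (D3) over hESC (D0) for every tested gene of the 36 pathway genes and of 5 further lists, each point 1 gene, with TMM scaling; purple is lower, green higher and grey not called, and the black bar is the median of the list. The median lies at -0.55 for the pathway genes, 0.23 for the TCA cycle and -0.01 for the reference genes.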

How the data were processed

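Polyadenylated RNA of 3 hESC (D0) and 3 NMP-L (D3) libraries was read from 1 end at 76 bp. The authors deposited gene-level expected counts from RSEM, not normalised between libraries, and TPM, which RSEM scales by transcript length to a fixed total per library. Per the labels' processing notes the tools were cutadapt 1.9.1, STAR 2.5.2a, RSEM 1.3.0 and DESeq2 1.12.3 with build hg19, and the annotation and strand setting are not given in the sources used here. RSEM divides reads shared between genes by estimation, so close paralogues are less certain. A fractional expected count was present in 8.44% of genes.

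Expected counts were rounded, filtered with filterByExpr (minimum count 10, 15517 of 27672 genes kept), scaled by TMM and tested for condition with glmQLFit and glmQLFTest in edgeR 4.0.16 (R 4.3.3), with Benjamini-Hochberg adjustment over all 15517 genes and a threshold of 0.05. A standard error is the log2 fold change divided by the square root of F. Shares within a step were taken from TPM and compared by exact permutation (scipy 1.17.1). Alternatives were other scalings (RLE, upper quartile, library size, HPRT1, GAPDH, 13 reference genes), DESeq2 1.42.0, other filters, replicate number as a block, a lowess correction for GC content and length (span 0.3, 97.3% of tested genes with values), and each library left out. The pipeline was tested on simulated data. Positions are from GENCODE release 44 on GRCh37, upstream sequences from RefSeq. Floors cover counting error only. The p-values weigh a difference between conditions against the spread between these libraries, and how their cultures were separated is not given.

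The 36 genes, the 5 further lists (other isoforms and partners, pentose phosphate and glycogen branches, TCA cycle, hypoxia response, reference genes) and the marker lists were chosen with earlier results of these data known. All 36 genes are named. From each further list the text names the 3 largest rises and the 3 largest falls among called genes whose mean reached 10 CPM in either condition, and ACTB and HPRT1 in any case. A few genes that meet this rule are not reported here. ERO1L was matched as ERO1A.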

Additional observations from a re-analysis of the deposited data

How the results depend on the processing

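The counts of pathway genes lower and higher (22 and 6) stayed within 1.5 times under RLE, upper-quartile and library-size scaling and scaling to 13 reference genes. The same held with DESeq2, both filters, the correction for GC content and length (21 and 5), and leaving out each library (22 to 23 and 5 to 6). The place of GAPDH (18 of 35 at or below it) also stayed within 1.5 times. A scaling between libraries shifts all genes by nearly the same amount, so the scalings do not test that place. The log2 fold change of GAPDH ranged from -0.62 to -0.47 without 1 library. Of the 35 genes, 13 kept direction and call in every alternative. Scaling to GAPDH changed most. It gave 12 pathway genes higher and 9 lower, 12 and 4 of the other isoforms, 9 and 5 of the pentose phosphate and glycogen list, 20 and 0 of the TCA cycle, 12 and 7 of the hypoxia list, 11 and 0 of the reference genes, and 10027 and 1428 of all genes. It reversed SLC2A3 (0.50), SLC16A1 (0.12), PFKL (0.16), PFKFB4 (0.34), ENO2 (0.09), LDHB (0.26), PDK2 (0.52), PDK3 (0.53) and MPC2 (0.46). Scaling to HPRT1 gave 2 pathway genes, 5 of the TCA cycle, 1 of the hypoxia list, 0 of the reference genes and 1793 of all genes higher, and PFKM at -0.23. These shifts follow from the construction of the scaling. Library-size scaling gave 1 pentose phosphate and glycogen gene higher, 2 reference genes lower, and SLC2A3 at 0.02 and PDK2 and PDK3 at 0.04. The GC correction, with or without the block, gave 1 pentose phosphate and glycogen gene higher and PDK2 at 0.10. Without 1 library in turn, 0 to 1 pentose phosphate and glycogen genes, 1 to 3 hypoxia genes and 1 to 3 reference genes were higher, PDK2 ran from -0.12 to 0.07 and PDK3 from -0.16 to 0.09. Differences in share, in percentage points, ran from -0.241 to 0.485 for PFKL (-0.606 from expected counts), -0.818 to 0.561 for PFKFB4 and -0.0299 to 0.0587 for ENO3. Apart from what a scaling does by construction, the cause was not tested.

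The labels give both conditions replicate numbers 1 to 3, but same-numbered libraries did not deviate together (correlations -0.37, -0.06 and -0.13), and no source states a pairing. With replicate number as a block, 22 pathway genes were lower and 6 higher, with GAPDH at -0.56 (edgeR adjusted p = 3.5e-04), and all 35 tested genes kept their call. At this depth PDK4 had too few counts to be tested, and the interval of PFKFB1 covered both directions.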

Other observations

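Branches that leave glycolysis early were lower or not called in NMP-L cells. Of 21 genes of the pentose phosphate pathway, glycogen turnover, hexosamine synthesis and the glycerol phosphate shuttle, 20 were tested, 10 were lower and 0 higher (26.7% and 29.1% of all tested genes), with a median log2 fold change of -0.29. Scaling to GAPDH gave 9 higher and 5 lower, beside 64.6% and 9.2% of all tested genes. PYGM, the muscle glycogen phosphorylase, fell from 17.4 ± 1.31 TPM to 3.67 ± 1.01 TPM (SD, n = 3 in each condition, log2 fold change -2.33, SE 0.17, edgeR adjusted p = 5.5e-07). PYGL, the liver form, fell from between 75.7 and 80.2 TPM to between 42.1 and 43.0 TPM (-0.96, edgeR adjusted p = 1.3e-06). GFPT2, which opens the hexosamine pathway, fell from between 71.9 and 78.6 TPM to between 38.5 and 41.1 TPM (2.01-fold, edgeR adjusted p = 1.3e-06). The libraries of the conditions did not overlap for any of these 3 genes.

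Genes of the hypoxia response outside glycolysis were also more often lower than higher by count. All 27 were tested, 12 were lower and 2 higher (26.7% and 29.1% of all tested genes), with a median log2 fold change of -0.28, and scaling to GAPDH gave 12 higher and 7 lower, again beside 64.6% and 9.2%. ANGPTL4, a secreted inhibitor of lipoprotein lipase, had 192, 194 and 204 counts in hESCs and 4, 9 and 4 in NMP-L cells (log2 fold change -5.31, SE 0.25, edgeR adjusted p = 1.6e-08). EGLN3, an oxygen-sensing prolyl hydroxylase, fell from 49.3, 40.3 and 48.5 TPM to 5.96, 8.41 and 6.27 TPM (-2.85, SE 0.14, edgeR adjusted p = 2.3e-08). HIF3A, a subunit of hypoxia-inducible factor, fell from between 10.3 and 12.9 TPM to between 3.57 and 4.3 TPM (-1.64, edgeR adjusted p = 7.4e-07). CA12, a carbonic anhydrase, rose from between 2.93 and 3.59 TPM to between 6.18 and 8.48 TPM (1.18, edgeR adjusted p = 3.9e-05). VEGFA, an angiogenic growth factor, was at 41.4, 37.7 and 42.7 TPM in hESCs and 56.8, 44.3 and 59.4 TPM in NMP-L cells, and its call (0.31, edgeR adjusted p = 0.029) was lost when any library other than NMP-L replicate 2 was left out, and relative to HPRT1 counts. The oxygen tension of the cultures is not given in the sources used here.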
